A study of Mus musculus with 4 samples.

Results

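The electron transport chain of muscle mitochondria passes electrons from succinate and NADH to oxygen, and ATP synthase uses the proton gradient that the chain builds. The genes described here encode the nuclear subunits of succinate dehydrogenase (complex II), the cytochrome bc1 complex (complex III), cytochrome c oxidase (complex IV) and ATP synthase (complex V), with a few accessory genes that share their symbols. They were chosen by symbol alone, as the rows of the count table named Sdha to Sdhd, Cyc1, or beginning with Uqcr, Uqcc, Cox4 to Cox8 or Atp5. Of 57 such rows, 52 had at least 1 count and are the genes of this report, out of 24621 rows with a count in the whole table. They were 4 genes of complex II, 9 subunits of complex III, 15 of complex IV, 15 of complex V, 6 accessory genes and 3 pseudogenes. The 5 rows at 0 in every mouse were the testis isoforms Cox8c and Cox7b2 and the pseudogenes Uqcrh-ps1, Uqcrh-ps2 and Atp5l-ps2.

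RNA came from quadriceps of 2 wild-type (WT) and 2 Mef2dα2 Eko male mice of about 20 weeks of age, sedentary, on standard chow and in the C57BL6/J background, with 1 polyA-selected library per mouse. Mef2dα2 Eko mice lack the muscle-specific α2 exon of Mef2d, which encodes a MEF2 transcription factor. CRISPR-Cas9 removed the exon in the germ line, so the deletion was present in every tissue, and the ubiquitous α1 exon was left. The founder line of these mice is not given in the sources used here. Total counts were between 72626757 and 85176059 per mouse, and the totals of the genotypes overlapped. Counts were scaled to a common library size, in CPM, after TMM normalization, and the genotypes were compared with edgeR's quasi-likelihood test over the 16120 genes that passed its filter on low counts, with Benjamini-Hochberg adjustment at 0.05. Log2 fold changes set Mef2dα2 Eko against WT mice, so a value below 0 is a lower level in Mef2dα2 Eko mice. With 2 mice in each group an exact permutation test cannot go below p = 0.333, so no such test is given. The gene count of Mef2d does not check the deletion of 1 small exon, and it was 259 and 227 CPM in WT and 252 and 241 CPM in Mef2dα2 Eko mice, and its log2 fold change was 0.02.

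As background, complex II oxidizes succinate in the citric acid cycle and is the one respiratory complex with no subunit encoded in mitochondrial DNA. Complex III hands electrons to cytochrome c, complex IV hands them to oxygen, and complex V is a rotary enzyme in which a ring of c subunits turns the shaft of the F1 head. Several complex IV subunits have a heart and skeletal muscle isoform beside a ubiquitous one, among them COX6A2, COX7A1 and COX8B in mice. The genes of these subunits are transcribed under general respiratory factors such as NRF1, GABP and the estrogen-related receptors, and their levels are higher in oxidative than in glycolytic fibres.

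Most of these genes lay slightly lower in Mef2dα2 Eko mice, and none passed the adjusted threshold. Of the 52 genes, 49 passed the filter on low counts. Of the 49, 43 had a log2 fold change below 0 and 6 above it, beside 51.3% of all genes tested below 0. The number with an adjusted p below 0.05 was 0 by edgeR, and the smallest adjusted p was 0.161, of Atp5g1. The same test called 67 genes in all, or 0.416% of those tested, of which 50 were lower (0.31%). At an unadjusted p below 0.05, 7 of the 49 genes (14.3%) were lower and 0 were higher, beside 6.41% and 5.15% of all genes. Both Mef2dα2 Eko mice lay below both WT mice for 26 genes (53.1%), beside 23.0% of all genes, and above both for Sdhc alone, beside 20.8%. The mice overlapped for the other 22. The 49 genes had a median level of 96.5 CPM beside 6.07 CPM for all genes tested, and these shares were not matched for level or length. DESeq2, which called 1.97% of all genes, called 1 of the 49, Atp5g1, at an adjusted p of 0.0096, and so did edgeR without a filter, which called 3.25% of 24621 genes.

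The median log2 fold change of the 49 genes was −0.10, which is a median difference of −6.42%, and that of all genes tested was −0.01. Relative to the WT mean of each gene, the median log2 level was −0.03 and 0.03 in the 2 WT animals against −0.07 and −0.11 in the 2 Mef2dα2 Eko animals. Both Mef2dα2 Eko mice lay below both WT mice. On this measure the means of the genotypes lay further apart than the WT mice did. The nearest WT and Mef2dα2 Eko mice lay closer together than the WT mice did. Summed over the 49 genes, the level was 8640.3 and 8886 CPM in WT and 8344 and 8314 CPM in Mef2dα2 Eko mice, a difference of −4.96% between the means. Without WT replicate 2, the mouse with the higher levels, the median was −0.04. In bulk muscle, a smaller share of a fibre type or cell type and less RNA per cell cannot be told apart.

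By complex, the medians of the log2 fold change were −0.01 for the 4 complex II genes, −0.11 for the 9 complex III subunits, −0.13 for the 15 complex IV subunits, −0.07 for the 15 complex V subunits and −0.09 for the 6 accessory genes. Values below 0 were found for 2 of 4, 8 of 9, 14 of 15, 13 of 15 and 6 of 6 of them. Summed CPM differed between the group means by 0.50%, −5.41%, −7.70%, −5.12% and −6.55% in the same order. The medians for complexes II to V were 0.034, −0.047, −0.072 and −0.015 without WT replicate 2. With the length trend of each library removed they were 0.009, −0.032, −0.055 and −0.046. The 39 complex I subunits that were tested had a median of −0.09, with 37 below 0, beside 51.3% of all genes tested. At an unadjusted p below 0.05 by edgeR, 8 were lower and 0 higher, beside 6.41% and 5.15% of all genes. At an adjusted p below 0.05 by edgeR there were 0. The difference between complexes was not tested, since the genes of a complex come from the same 4 mice.

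**Figure D1:**
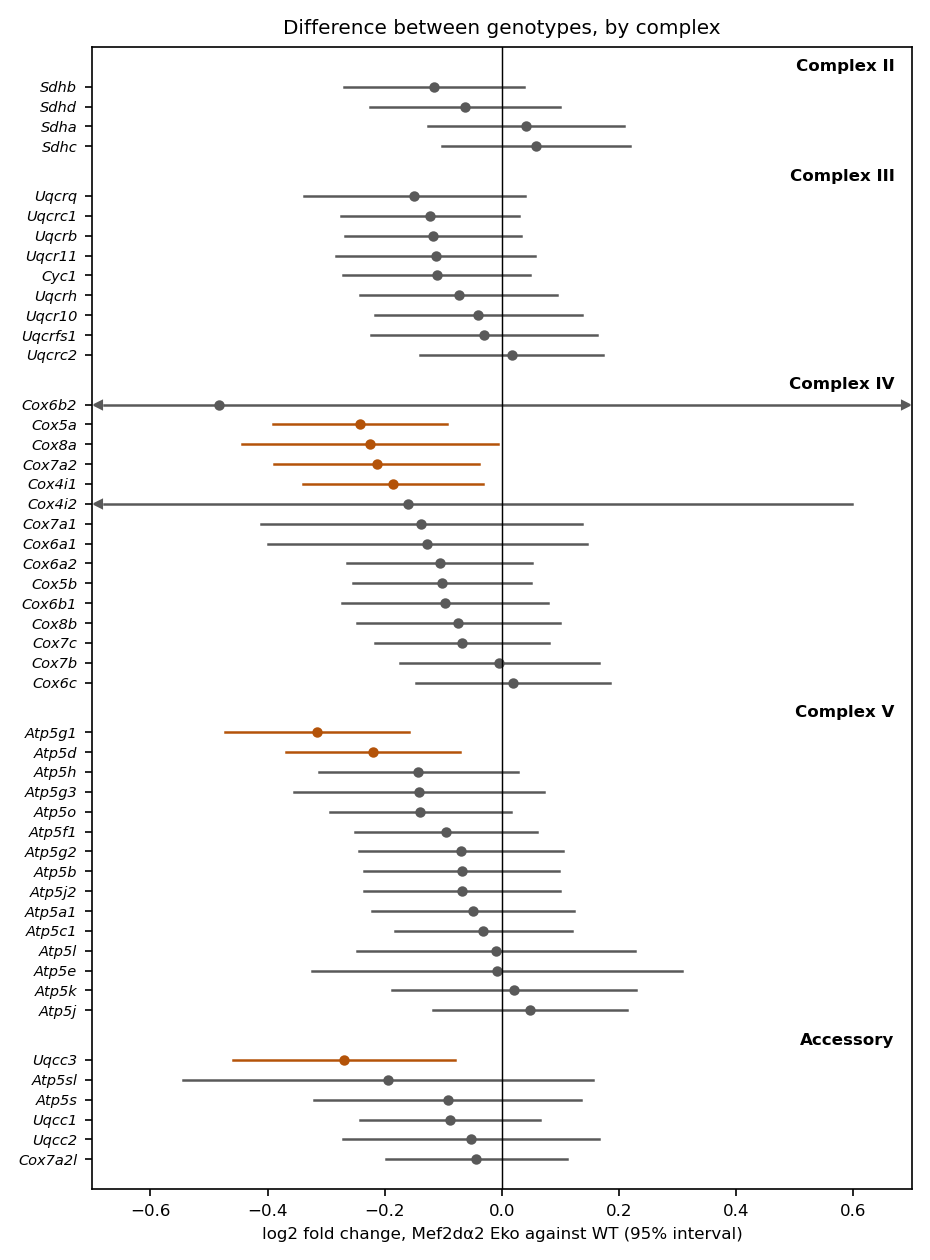
Log2 fold change of each of the 49 tested genes, Mef2dα2 Eko against WT, with its 95% interval, grouped by complex. Points left of 0 are lower in Mef2dα2 Eko mice, orange marks the 7 genes with an unadjusted p below 0.05, and arrowheads mark intervals of Cox6b2 and Cox4i2 that run past the axis.

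The highest levels were those of ATP synthase genes. Per kilobase of transcript, the highest level in complex V was that of Atp5b, the catalytic F1 beta subunit, at 715 CPM per kilobase, followed by Atp5a1, the F1 alpha subunit, at 496 to 537, depending on which annotated transcript gives the length. In complex IV it was Cox6a2, the muscle isoform of subunit 6a, at 464 CPM per kilobase. In complex III, Uqcrb stood at 233 and Uqcrq at 84.9 to 319, so their order is not settled by the annotation. In complex II, Sdha stood at 201 and Sdhc at 54.4 to 212, which leaves their order open in the same way. Among the 49 genes tested, the lowest levels were those of Cox4i2, the lung isoform of subunit 4, at 0.756 to 0.762 CPM per kilobase, and of the testis isoform Cox6b2, at 0.135 to 0.202.

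**Figure D2:**
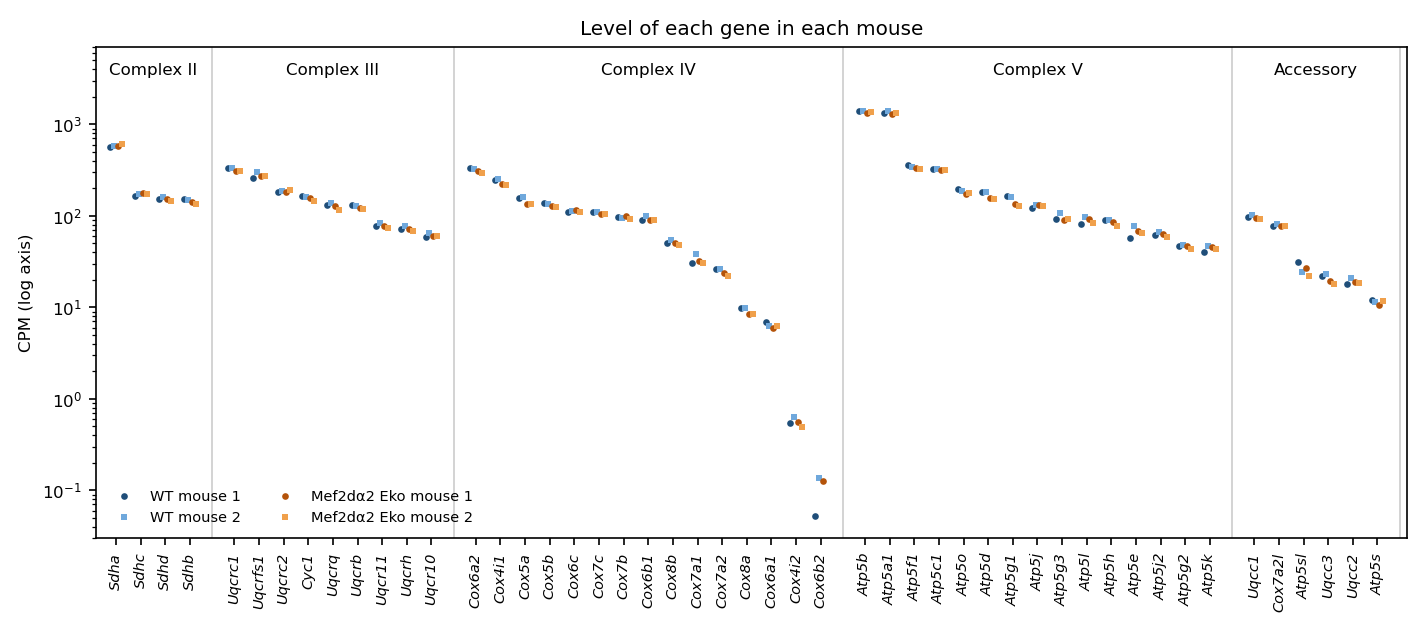
CPM of each tested gene in each of the 4 mice on a log axis, ordered by mean level within each complex. Levels ran from 1404 CPM for Atp5b to under 1 CPM for Cox4i2 and Cox6b2, and the mice lay close together for most genes. Cox6b2 was at 0 in Mef2dα2 Eko replicate 2, which a log axis cannot show.

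Promoter windows of RefSeq on GRCm38.p6, read here as the 250 bases before the annotated start, were found for 39 of the 52 genes. Those without a window were Atp5a1, Cox4i1, Cox4i2, Cox6a2, Cox6c, Cyc1, Sdhc, Uqcrb, Uqcrc2, Uqcrq and the 3 pseudogenes. Short words were counted on both strands. The MEF2 consensus word was in 0 of the 39 windows, and in 3.42% of the windows of all 27025 genes. CCGGAA, a core word of GABP and other ETS factors, was in 13 (33.3%) beside 13.6% of all windows, the NRF1 word in 8 (20.5%) beside 4.23%, and AAGGTCA, a word of the estrogen-related receptors (ERR), in 3 (7.69%) beside 4.70%. At least 1 of these 3 words was in 20 windows (51.3%), beside 20.7% of all windows, and the E-box word CANNTG was in 25 (64.1%) beside 69.3%. A word in a window is a match of letters and shows no binding, and its absence says only that these letters are not in the window.

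The windows of 5 genes are shown as examples: the c-ring genes Atp5g1 and Atp5g3, the matrix-side subunit Cox5a, and the muscle and ubiquitous isoforms of subunit 7a, Cox7a1 and Cox7a2. Among the genes tested, Atp5g1 and Cox5a had the smallest unadjusted p-values by edgeR. Atp5d and Uqcc3, which came next, and the isoform pair Cox8b and Cox8a are not shown. The 5 windows follow. They are written 5′ to 3′ on the strand of the gene, without bases that GENCODE places in a UTR or coding exon, and capitals mark an ETS, NRF1, ERR or MEF2 word. Capitals stand in Cox7a2, as an ETS word read on the other strand, and in Atp5g3, as an ERR word read on the other strand. Atp5g1, Cox5a and Cox7a1 hold none of the 4 words in this window.
Atp5g1, chr11:96075671-96075881, minus strand: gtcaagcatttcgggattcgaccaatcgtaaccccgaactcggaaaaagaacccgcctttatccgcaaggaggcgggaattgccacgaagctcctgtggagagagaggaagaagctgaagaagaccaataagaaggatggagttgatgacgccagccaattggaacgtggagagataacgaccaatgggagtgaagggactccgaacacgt
Atp5g3, chr2:73911327-73911576, minus strand: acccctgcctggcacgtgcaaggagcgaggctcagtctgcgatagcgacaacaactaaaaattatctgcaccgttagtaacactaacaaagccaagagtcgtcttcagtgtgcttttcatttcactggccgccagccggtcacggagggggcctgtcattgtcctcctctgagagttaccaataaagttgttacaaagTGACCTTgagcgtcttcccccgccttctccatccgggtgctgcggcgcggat
Cox5a, chr9:57520982-57521231, plus strand: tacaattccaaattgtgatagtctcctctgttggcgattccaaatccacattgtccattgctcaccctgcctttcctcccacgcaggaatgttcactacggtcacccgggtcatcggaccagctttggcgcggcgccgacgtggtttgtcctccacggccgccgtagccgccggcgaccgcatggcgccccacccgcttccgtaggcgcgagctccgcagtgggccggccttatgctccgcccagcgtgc
Cox7a1, chr7:30183921-30184143, plus strand: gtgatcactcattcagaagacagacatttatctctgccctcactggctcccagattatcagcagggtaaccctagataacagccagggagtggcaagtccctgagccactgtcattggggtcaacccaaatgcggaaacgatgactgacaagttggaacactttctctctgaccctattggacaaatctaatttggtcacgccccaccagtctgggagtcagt
Cox7a2, chr9:79759879-79760103, minus strand: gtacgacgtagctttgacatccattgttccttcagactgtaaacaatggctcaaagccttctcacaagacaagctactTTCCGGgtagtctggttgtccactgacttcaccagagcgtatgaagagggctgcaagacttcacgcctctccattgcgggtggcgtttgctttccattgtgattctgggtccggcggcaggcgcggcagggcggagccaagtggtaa

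Complex II had the median nearest 0 in the reported fit, though without WT replicate 2 the median of complex V was nearer 0, at −0.015 beside 0.034 for complex II. Sdha, the flavoprotein that oxidizes succinate, was at 568 and 583 CPM in WT and 574 and 610 CPM in Mef2dα2 Eko mice, so the mice overlapped, with a log2 fold change of 0.04 ± 0.07 (SE). Sdhb, the iron-sulphur subunit, was at 152 and 151 CPM in WT and 143 and 136 CPM in Mef2dα2 Eko mice, and both Mef2dα2 Eko mice lay lower, but its log2 fold change of −0.12 had a 95% interval from −0.27 to 0.04. Sdhc and Sdhd encode the membrane anchors. Sdhc was at 163 and 175 CPM in WT and 177 and 175 CPM in Mef2dα2 Eko mice, with both Mef2dα2 Eko mice just over the higher WT mouse. Its log2 fold change of 0.06 was the largest above 0 among the 49 genes, with an interval from −0.10 to 0.22, and it was 0.01 without WT replicate 1 and 0.12 without WT replicate 2. Sdhd was at 152 and 161 CPM in WT and 153 and 146 CPM in Mef2dα2 Eko mice, and these overlapped. By edgeR, the unadjusted p of the 4 genes was between 0.118 and 0.578. Sdha overlaps the annotated gene Gm16125 on the other strand.

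In complex III, no subunit reached an unadjusted p below 0.05 by edgeR. Uqcrc1, a core protein that faces the matrix, was at 329 and 337 CPM in WT and 306 and 306 CPM in Mef2dα2 Eko mice. Both Mef2dα2 Eko mice lay lower, with a log2 fold change of −0.12 ± 0.06 (SE). Uqcrq, a small subunit, was at 133 and 139 CPM in WT and 129.6 and 115 CPM in Mef2dα2 Eko mice, with a log2 fold change of −0.15 and an interval from −0.34 to 0.04. Cyc1, cytochrome c1, was at 167 and 159.6 CPM in WT and 155 and 147 CPM in Mef2dα2 Eko mice, and the groups did not overlap. The remaining subunits of the complex, Uqcrb and Uqcr11 among those lower in both Mef2dα2 Eko mice and Uqcrfs1, Uqcrc2, Uqcrh and Uqcr10 among those that overlapped, had log2 fold changes between −0.12 and 0.02. Uqcrfs1 carries the Rieske iron-sulphur centre and Uqcrh is the hinge protein.

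The assembly factor Uqcc3 stood apart from the complex III subunits in size. It was at 21.8 and 23.4 CPM in WT and 19.4 and 18.1 CPM in Mef2dα2 Eko mice. Both Mef2dα2 Eko mice lay below both WT mice, and the log2 fold change was −0.27 ± 0.08 (SE), with an unadjusted p of 0.0122 and an adjusted p of 0.289 by edgeR. UQCC3 takes part in the maturation of cytochrome b with UQCC1 and UQCC2. Uqcc1 was at 97.4 and 102 CPM in WT and 94.2 and 92.9 CPM in Mef2dα2 Eko mice, with −0.09 as its log2 fold change, and Uqcc2 overlapped between the groups at 18.1 to 20.9 CPM. Of 3 other complex III assembly genes, Ttc19, which clears fragments of the Rieske protein, had the smallest p, with 56.4 and 52.7 CPM in WT and 47.8 and 49.6 CPM in Mef2dα2 Eko mice and an unadjusted p of 0.0556 by edgeR.

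Complex IV held 4 of the 7 genes with an unadjusted p below 0.05. Cox5a, a subunit on the matrix side, was at 158 and 161 CPM in WT and 135 and 134 CPM in Mef2dα2 Eko mice. The distance between the groups was many times that within either, and the log2 fold change was −0.24 ± 0.06 (SE), a difference of −15.5% with a 95% interval from −23.7% to −6.35%. Its p was 0.0062 unadjusted and 0.231 adjusted by edgeR. Cox5a lies on chromosome 9 at chr9:57521274-57532426 (GRCm38, plus strand), and it overlaps Gm26631 on the other strand.

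Cox4i1, the ubiquitous isoform of subunit 4, was at 245 and 255 CPM in WT and 221 and 219 CPM in Mef2dα2 Eko mice, without overlap. Its log2 fold change was −0.19 ± 0.06 (SE), with a p of 0.0245 unadjusted and 0.352 adjusted by edgeR, and it overlaps Emc8 on the other strand. Whether counting used strand is not given in the sources used here, so for such a gene reads from the partner cannot be set apart. The same holds for Uqcrb (Gm10767), Uqcrc2 (Pdzd9), Uqcrh (Gm12854), Cox6c (Vps13b), Atp5a1 (Haus1), Atp5f1 (Gm42890 and Wdr77), Atp5l (Gm30934) and Atp5o (Gm10785, Gm15976 and Itsn1). With the GC trend of each library removed, the log2 fold change of Cox4i1 was −0.12 at an adjusted p of 0.588 by edgeR. Cox4i2, its lung isoform, was close to the lowest levels of the complex at 0.540 and 0.631 CPM in WT and 0.557 and 0.489 CPM in Mef2dα2 Eko mice.

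In 3 pairs, complex IV isoforms set a muscle form beside a ubiquitous form. Cox6a2 was at 330 and 325 CPM in WT and 312 and 296 CPM in Mef2dα2 Eko mice, while Cox6a1 was at 6.98 and 6.24 CPM in WT and 5.92 and 6.19 CPM in Mef2dα2 Eko mice. The ratio of Cox6a2 to Cox6a1 was 47.2 and 52.0 in WT against 52.7 and 47.9 in Mef2dα2 Eko mice, so the genotypes overlapped. Per kilobase of transcript this ratio was 41.8, averaged over the 4 mice. Cox6a2 overlaps Itgad on the other strand.

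Cox7a1 was at 30.3 and 38.5 CPM in WT and 32.0 and 30.5 CPM in Mef2dα2 Eko mice, and WT replicate 2 was the one mouse apart from the others. Cox7a2 was at 26.5 and 26.3 CPM in WT and 23.5 and 22.0 CPM in Mef2dα2 Eko mice, without overlap, with a log2 fold change of −0.21 ± 0.07 (SE) and a p of 0.0231 unadjusted and 0.347 adjusted by edgeR. The ratio of Cox7a1 to Cox7a2 was 1.15 and 1.46 in WT against 1.36 and 1.39 in Mef2dα2 Eko mice, and the WT mice enclosed the Mef2dα2 Eko mice. The log2 fold change of Cox7a1 was −0.14 and turned to 0.06 without WT replicate 2.

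Cox8b was at 50.2 and 53.8 CPM in WT and 50.8 and 48.1 CPM in Mef2dα2 Eko mice. Cox8a was at 9.91 and 9.83 CPM in WT and 8.35 and 8.54 CPM in Mef2dα2 Eko mice, without overlap, with a log2 fold change of −0.22 ± 0.09 (SE) and a p of 0.0454 unadjusted and 0.422 adjusted by edgeR. The ratio of Cox8b to Cox8a was 5.07 and 5.48 in WT against 6.08 and 5.63 in Mef2dα2 Eko mice, the only one of the 3 ratios without overlap, and on the log2 scale it was 0.15 higher in Mef2dα2 Eko mice. Over the 3 pairs, the median log2 fold change was −0.11 for the muscle isoforms and −0.21 for the ubiquitous isoforms. The ubiquitous isoforms were lower in both Mef2dα2 Eko mice for 3 of 3 genes and the muscle isoforms for 1 of 3, beside 23.0% of all genes. These values are a description with 3 genes on each side, and no test of the difference was made.

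**Figure D3:**
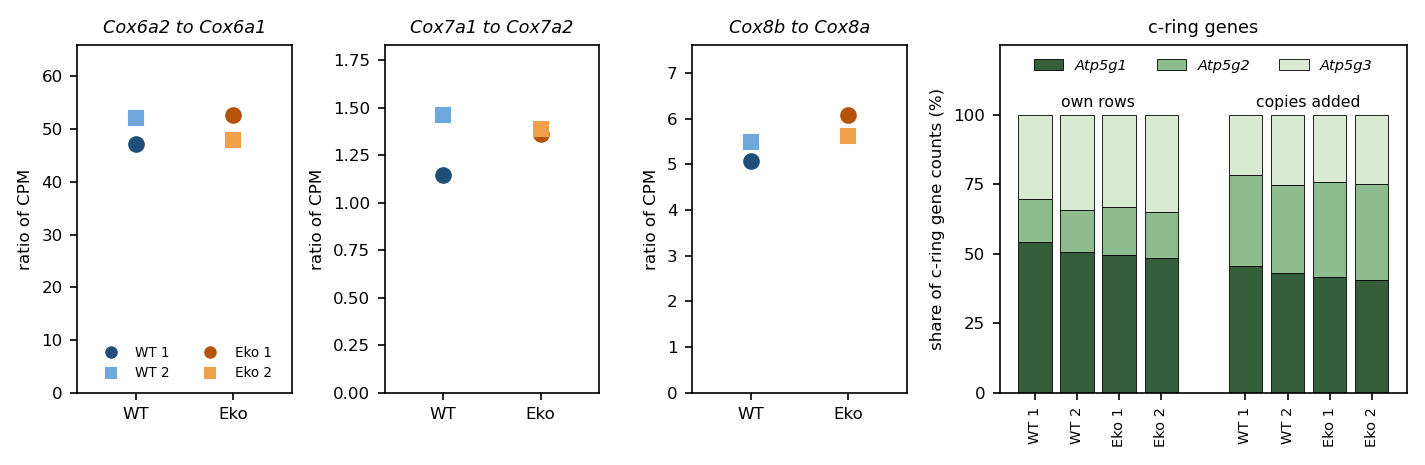
The first 3 panels give the ratio of the muscle to the ubiquitous isoform in each mouse, with axes from 0. The last gives the share of the counts of the 3 c-ring genes held by each, from the genes' own rows and after the counts of their processed copies were added. Only Cox8b to Cox8a separates the genotypes, and Atp5g1 has its lowest shares in the Mef2dα2 Eko mice in both counts.

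The other complex IV subunits were Cox5b, Cox6b1, Cox6c, Cox7b and Cox7c, with log2 fold changes between −0.10 and 0.02, and Cox6b2. Cox6b2 had the lowest log2 fold change of all 49 genes, −0.48, but it rested on 4 and 11 counts in WT against 11 and 0 counts in Mef2dα2 Eko mice, and its 95% interval ran from −3.18 to 2.21. A count of 0 in Mef2dα2 Eko replicate 2 allows a level of up to 0.0419 CPM, for counting error only. Of 21 complex IV assembly and copper supply genes tested, 12 lay below 0, beside 51.3% of all genes. At an unadjusted p below 0.05, 1 was lower and 0 were higher, beside 6.41% and 5.15% of all genes. The lower gene was Cox19, with 14.7 and 13.9 CPM in WT and 12.6 and 10.8 CPM in Mef2dα2 Eko mice and an adjusted p of 0.362 by edgeR.

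Complex V held the gene with the smallest p of the 49. Atp5g1, 1 of 3 genes for the same mature c subunit of the rotor ring, was at 165 and 160.1 CPM in WT and 134 and 127 CPM in Mef2dα2 Eko mice. The groups were well apart, and the log2 fold change was −0.32 ± 0.07 (SE), a difference of −19.7% with an interval from −28.0% to −10.4%. By edgeR the unadjusted p was 0.0021 and the adjusted p 0.161. Its adjusted p lay between 0.0067 and 0.435 over the alternative settings and passed 0.05 with DESeq2, at 0.0096, and without a filter on low counts. Atp5g1 lies at chr11:96068852-96075670 (GRCm38, minus strand).

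Atp5g3 was at 91.8 and 108 CPM in WT and 90.0 and 91.5 CPM in Mef2dα2 Eko mice. The Mef2dα2 Eko mice lay just under the lower WT mouse, and the log2 fold change was −0.14 ± 0.09 (SE), which was −0.0024 without WT replicate 2 and −0.25 without WT replicate 1. Atp5g2 was at 46.5 and 47.8 CPM in WT and 46.9 and 43.0 CPM in Mef2dα2 Eko mice, with overlap. Atp5g1 held 54.4% and 50.6% of the counts of the 3 genes in WT against 49.5% and 48.6% in Mef2dα2 Eko mice. The share was lower in both Mef2dα2 Eko mice, by less than the distance between the WT mice.

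The counts of some of these genes depend on how reads were divided between a gene and its near-identical processed copies. Pseudogene transcripts at least 95% identical over at least 200 bases were found for 12 of the 49 genes, and for 7 of them the copies held over 10% of the joint counts. The share was 65.0% for Atp5g2, whose copies Gm10175 and Gm10231 match it over 441 bases at 100% identity, 41.4% for Atp5h, 32.7% for Atp5l, 14.0% for Atp5g1, 13.4% for Atp5f1, 11.1% for Uqcrb and 10.8% for Atp5o. Levels of these genes are therefore uncertain. With the counts of the copies added to each gene, the log2 fold change was −0.31 for Atp5g1, −0.12 for Atp5g2, −0.13 for Atp5h and −0.05 for Atp5l, where the genes' own rows gave −0.32, −0.07, −0.14 and −0.01. The share of Atp5g1 among the c-ring genes then became 45.5% and 43.2% in WT against 41.7% and 40.5% in Mef2dα2 Eko mice. This setting was chosen after the data were seen, and no gene of the 49 passed the adjusted threshold in it.

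In the F1 head, Atp5d, the delta subunit of the rotor shaft, was at 181 and 182 CPM in WT and 158 and 154 CPM in Mef2dα2 Eko mice. The groups were far apart, with a log2 fold change of −0.22 ± 0.06 (SE) and a p of 0.0102 unadjusted and 0.275 adjusted by edgeR. With the GC trend of each library removed, the log2 fold change was −0.13 at an adjusted p of 0.520. Atp5d has a GC content of 61.1% and overlaps Cbarp on the other strand. Atp5b was at 1402 and 1404 CPM in WT and 1321 and 1354 CPM in Mef2dα2 Eko mice, lower in both, with a log2 fold change of −0.07 and an interval from −0.24 to 0.10. Atp5a1, Atp5c1 and Atp5e, the alpha, gamma and epsilon subunits, had log2 fold changes of −0.05, −0.03 and −0.01.

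In the stator, which holds the F1 head still, Atp5o, the OSCP subunit, was at 197 and 188 CPM in WT and 173 and 176 CPM in Mef2dα2 Eko mice, with a log2 fold change of −0.14 and an unadjusted p of 0.0698 by edgeR. Atp5h was at 89.6 and 90.2 CPM in WT and 85.1 and 77.8 CPM in Mef2dα2 Eko mice, with −0.14 as its log2 fold change. Atp5f1 had a value of −0.10 and Atp5j of 0.05, and Atp5j overlaps Gabpa on the other strand. The medians were −0.05 for the 5 F1 genes, −0.12 for the 4 stator genes, −0.14 for the 3 c-ring genes and −0.01 for the 3 genes of the small membrane subunits e, f and g, Atp5k, Atp5j2 and Atp5l. In the last 3, both groups of mice overlapped for every gene.

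Atp5s and Atp5sl carry the symbol of ATP synthase but are not subunits of it, and Cox7a2l encodes a factor of respiratory supercomplexes. Their log2 fold changes were −0.09, −0.19 and −0.04. Atp5sl varied within the groups, from 31.6 and 24.1 CPM in WT to 26.8 and 21.9 CPM in Mef2dα2 Eko mice. The 3 pseudogenes with a count, Atp5l2-ps, Atp5k-ps2 and Atp5l-ps1, were at or under 0.0264 CPM in every mouse and were not tested. Of 8 genes for complex V assembly and regulation, 5 lay below 0, beside 51.3% of all genes tested. The smallest p was that of Atpaf2, an F1 assembly factor, with 19.7 and 19.4 CPM in WT and 16.1 and 17.3 CPM in Mef2dα2 Eko mice and an adjusted p of 0.347 by edgeR. Of the 4 complex II assembly genes, Sdhaf3 had the smallest p, with 10.5 and 11.6 CPM in WT and 12.9 and 12.8 CPM in Mef2dα2 Eko mice, higher in both, at an unadjusted p of 0.0518.

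Cytochrome c, which carries electrons from complex III to complex IV, lay lower as well. Cycs was at 312 and 302 CPM in WT and 281 and 261 CPM in Mef2dα2 Eko mice, with a log2 fold change of −0.18 and a p of 0.0400 unadjusted and 0.406 adjusted by edgeR. The 6 subunits of complexes III to V encoded in mitochondrial DNA all had log2 fold changes below 0, from −0.43 to −0.06, but for 6 of 6 the mice overlapped. The widest difference was that of mt-Atp6, at 2482 and 1409 CPM in WT and 1738 and 1153 CPM in Mef2dα2 Eko mice, where WT replicate 1 was the highest mouse.

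Among 14 nuclear regulators of respiratory genes, 8 lay below 0, beside 51.3% of all genes tested. At an unadjusted p below 0.05, 2 were lower, beside 6.41% of all genes, and 2 were higher, beside 5.15%. The lower 2 were Esrrb and Esrra, which encode estrogen-related receptors. The higher 2 were Gabpa and Gabpb2, which encode subunits of GABP. Esrrb had the smallest p, at 5.47 and 6.12 CPM in WT and 4.18 and 3.79 CPM in Mef2dα2 Eko mice, so the log2 fold change was −0.54, at an adjusted p of 0.211 by edgeR. Gabpa was at 28.5 and 28.1 CPM in WT and 31.8 and 31.7 CPM in Mef2dα2 Eko mice.

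Fibre type genes and markers of other cells differed between the same mice. Of 12 fibre type myosins and markers, 3 were lower at an unadjusted p below 0.05 and 0 higher, beside 6.41% and 5.15% of all genes tested. Mb, myoglobin, an oxygen store of oxidative fibres, was at 1430 and 1303 CPM in WT and 1050.1 and 884 CPM in Mef2dα2 Eko mice, so the log2 fold change was −0.50, at an adjusted p of 0.156 by edgeR. Myh2, the myosin of oxidative fast fibres, had a log2 fold change of −0.51 and Myh1 of −0.44. Atp2a2 had the lowest value of the list, −0.59, but its mice overlapped, at 152 and 291 CPM in WT and 168 and 126 CPM in Mef2dα2 Eko mice. The list as a whole had 6 of 12 genes above 0. Among these, the glycolytic fibre genes Myh4 and Atp2a1 were higher in both Mef2dα2 Eko mice, with log2 fold changes of 0.07 and 0.11, and Pvalb and Tnnt3, at 0.14 and 0.11, overlapped. The slow fibre genes Myh7, Tnnt1 and Tnni1 were highest in WT replicate 2, followed by Mef2dα2 Eko replicate 1, and lowest in WT replicate 1. Tnni1 was at 5.73 and 16.7 CPM in WT and 15.1 and 7.76 CPM in Mef2dα2 Eko mice. Myh7, the slow myosin, was at 113 and 339 CPM in WT and 237 and 145 CPM in Mef2dα2 Eko mice, and Tnnt1 was at 11.5 and 42.6 CPM in WT and 32.1 and 18.5 CPM in Mef2dα2 Eko mice, both with overlap. The 8 myofibre markers summed to 122470 and 124031 CPM in WT and 121180 and 126969 CPM in Mef2dα2 Eko mice, which overlapped. The 6 white adipocyte markers summed to 81.6 and 31.5 CPM in WT and 26.5 and 11.5 CPM in Mef2dα2 Eko mice, and 5 of 6 had a log2 fold change below 0. The 5 macrophage markers summed to 24.4 and 19.3 CPM in WT and 19.1 and 13.9 CPM in Mef2dα2 Eko mice, with 5 of 5 below 0. The 3 Schwann cell markers summed to 22.3 and 24.8 CPM in WT and 27.6 and 33.5 CPM in Mef2dα2 Eko mice, with 3 of 3 above 0. The 3 satellite cell markers summed to 9.13 and 9.41 CPM in WT and 10.6 and 10.9 CPM in Mef2dα2 Eko mice, also with 3 of 3 above 0. Smooth muscle markers were above 0 for 4 of 4, with sums of 55.6 and 53.7 CPM in WT and 54.8 and 68.1 CPM in Mef2dα2 Eko mice. Of the 5 fibroblast markers 4 lay below 0, and Dpt (−0.31) and Pdgfra (−0.26) were lower at an unadjusted p below 0.05 by edgeR, while the sum, held mostly by Dcn and Col1a1, overlapped between the genotypes. The sums of the endothelial markers overlapped. The brown adipocyte gene Ucp1 was at 0 in every mouse. The part of any of these in the lower levels of the respiratory genes was not tested.

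Transcript length also moved with the differences. Over 15830 genes with an annotated length, log2 fold change had a rank correlation of 0.18 with length and of −0.22 with GC content, descriptions across genes of the same 4 libraries. The 49 genes were short, with a median length of 730 bases beside 2554 for all genes. Of them, 39 were among the 3960 genes of at most 1548 bases, whose median log2 fold change was −0.06. Of those 3960 genes 62.7% lay below 0, beside 51.3% of all genes tested. Among the 1583 shortest genes the median was −0.08, and for the 30 of the 49 genes among them it was −0.11. With the trend of each library with length removed, the median of the 49 genes was −0.04, and with the trend with GC content removed it was −0.07.

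**Figure D4:**
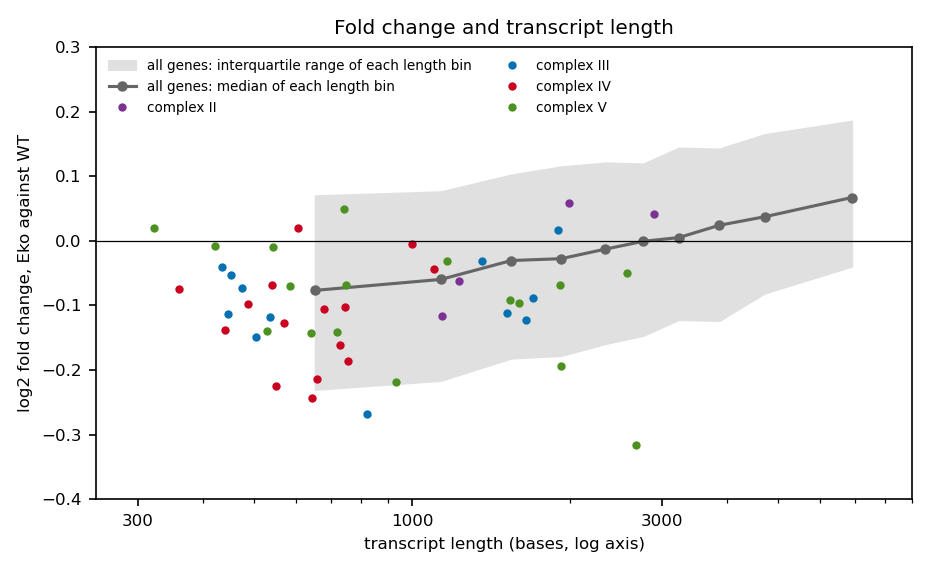
Log2 fold change against annotated transcript length on a log axis for the tested genes except Cox6b2, which lies below the axis, with the median and interquartile range of all genes in each of 10 length bins. The medians of all genes run from −0.08 in the shortest bin to 0.07 in the longest, and Atp5g1, drawn at the middle of annotated transcripts of 596 to 4715 bases, lies lowest.

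Across the settings tried, the median of the 49 genes stayed below 0 and lay between −0.11 and −0.04. The complex IV median was lower than the complex II median in each of them.

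**Figure D5:**
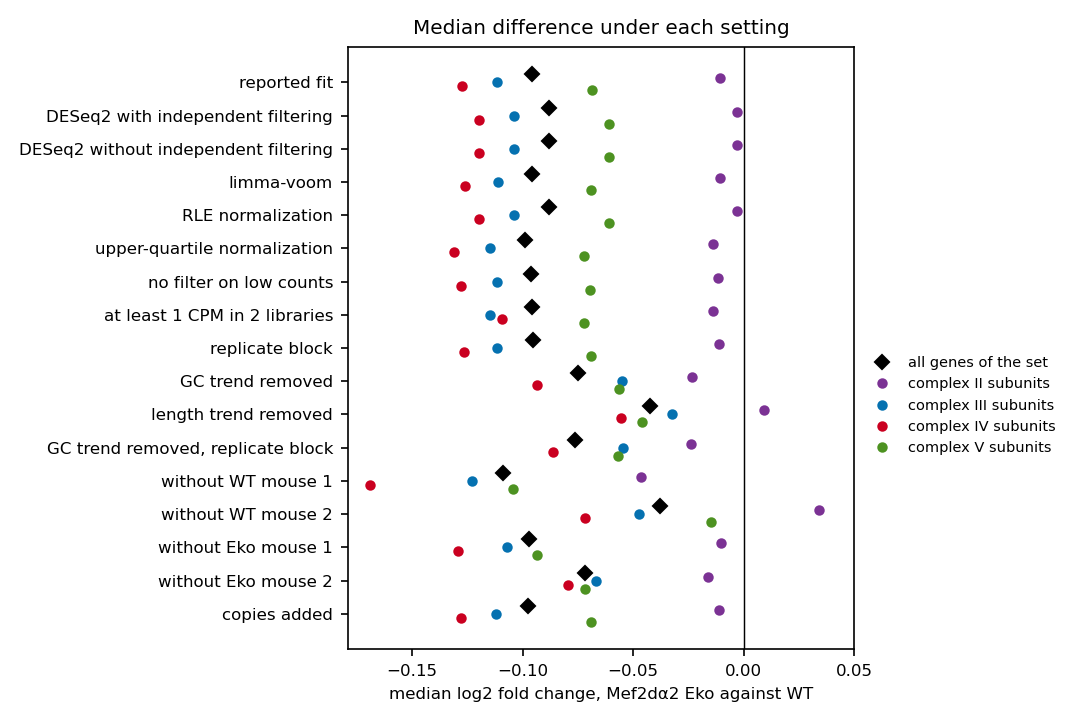
Median log2 fold change of all genes of the set and of each complex under the reported fit and each alternative. Black diamonds, for all genes of the set, run from −0.11 without WT replicate 1 to −0.04 without WT replicate 2, and complex II lies nearest 0 in most settings.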

How the data were processed

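Quadriceps RNA of 2 WT and 2 Mef2dα2 Eko mice was sequenced, with genotype and replicate number taken from the sample labels. The authors checked reads with FastQC, aligned them to mm10 and estimated the count of each gene with RSEM on a GRCm38 annotation, and they deposited these expected counts, all of them whole numbers, without normalization. The submitters' processing notes name STAR 2.6.1a. RSEM divides reads that match several genes by a probability model, so near-identical genes are uncertain.

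Counts were analysed in R 4.3.3 with edgeR 4.0.16 (quasi-likelihood test), using TMM normalization, edgeR's default filter (16120 of 24621 genes kept), genotype as the sole term and a prior count of 0.125. Benjamini-Hochberg adjustment covered all genes tested. Total counts lay between 72626757 and 85176059, so 3 counts, taken as the least level, are 0.0348 to 0.0419 CPM. This floor and the intervals of counts cover counting error only. The mice are separate animals, described in the study as littermates. The p-values rest on 2 of them in each group, with the spread of a gene estimated partly from the other genes tested. Positions, lengths and copies were taken from GENCODE M21 on GRCm38, and copies were found with blastn 2.17.0+.

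Alternatives were DESeq2 1.42.0, limma-voom (limma 3.58.1), other normalizations and filters, removal of length or GC trends, a replicate block and leaving out each mouse. The members, gene lists and tests were chosen with earlier results of these data known. Named genes were all genes by complex, with full values for the 3 smallest p and the highest level per length of each complex, the isoform families and the extremes of fold change. Of each gene list other than the cell markers, the gene with the smallest p was named. Cyc1, Uqcc1, Atp5h, Atp5sl, Esrra, Gabpa, Gabpb2, Dpt, Pdgfra, Cidea, Zic1 and the fibre type genes other than Mb were added after their values were seen.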

Additional observations from a re-analysis of the deposited data

How the results depend on the processing

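Most values kept their direction. Beside 0 genes in the reported fit, DESeq2 with and without independent filtering and the fit with no filter on low counts each gave 1 gene with an adjusted p below 0.05, Atp5g1. The count lower at an unadjusted p below 0.05, 7 as reported, was 4 with the length trend removed, and leaving out a mouse gave 2 to 8 lower and 0 to 1 higher, with 2 without Eko replicate 2 and 4 without WT replicate 2. The median of the 49 genes was −0.043 with the length trend removed and −0.109 to −0.038 over the mice left out. With the GC trend removed, the length trend removed, or the GC trend removed beside a replicate block, the median was −0.055, −0.032 and −0.055 for complex III and −0.094, −0.055 and −0.086 for complex IV. Leaving out a mouse gave medians of −0.046 to 0.034 for complex II, −0.123 to −0.047 for complex III, −0.169 to −0.072 for complex IV and −0.104 to −0.015 for complex V, each nearest 0 without WT replicate 2 except complex II, which turned above 0 there. The difference in the log2 isoform ratio lay between −0.05 and 0.09 for Cox6a2 to Cox6a1, −0.09 and 0.26 for Cox7a1 to Cox7a2, 0.09 and 0.21 for Cox8b to Cox8a, and −0.06 and 0.11 for Cox4i2 to Cox4i1. The sign turned for Atp5g2 (0.0023) and Cox8b (0.012) with the length trend removed, for Cox7a1 without WT replicate 2 (−0.30 to 0.059 over the mice left out), and without Eko replicate 2 for Sdha (−0.0035 to 0.098) and Cox6b2 (−5.88 to 0.42). The cause was not tested.

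The replicate numbers name different mice, and the sources call the WT and Mef2dα2 Eko mice littermates without tying a number to a litter. For that reason the numbers were not taken as pairing. Same-numbered deviations correlated at 0.16 over 16120 genes, but 2 pairs cannot decide whether a number marks a shared litter. With the replicate block, 0 of the 49 genes passed, the median was −0.10, and the genes called over the whole table numbered 186, beside 67 as reported. That number was 318 by DESeq2 (309 without independent filtering), 799 without a filter, 23 with at least 1 CPM in 2 libraries, 36 with the GC trend removed, 225 with the GC trend removed beside the block, and 99 to 299 with a mouse left out. With 2 mice in each group, differences of a few percent were within the intervals of most genes.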
